A study of Homo sapiens with 74 samples.

Results

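Protein kinase C is a family of serine/threonine kinases, and 8 of its genes were followed here through 2 human leukaemia cell lines with and without a histone methyltransferase or its partner protein. The 8 genes are PRKCA, PRKCB, PRKCD, PRKCE, PRKCH, PRKCQ, PRKCI and PRKCZ. They were taken by name from gene count tables that list 28131 genes, and all 8 were found in both tables. K562 and HEL are established erythroleukaemia lines that carry features of both red cell and megakaryocyte precursors. The messenger RNA of 5 groups was sequenced. The K562 groups are control cells labelled wild type, cells labelled DOT1L-/- (DOT1L KO) and cells labelled ENL-/- (ENL KO), and the HEL groups are control cells and cells with knockdown of DOT1L (DOT1L KD). DOT1L is the enzyme that methylates lysine 79 of histone H3 along transcribed genes, and ENL, encoded by MLLT1, is a chromatin reader found in complexes with DOT1L. Whether each knockout line came from 1 clone, and how the knockdown was made, are not given in the sources used here. The series has 74 samples, of which 13 RNA-seq columns were used and 61 samples of other assays were not analysed here.

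The family is divided by what switches the kinases on. Phospholipase C cuts a membrane lipid into diacylglycerol and a messenger that releases calcium. The conventional isoforms (alpha, from PRKCA, and beta, from PRKCB) answer to diacylglycerol and calcium, the nPKC isoforms (delta, epsilon, eta and theta, from PRKCD, PRKCE, PRKCH and PRKCQ) to diacylglycerol without calcium, and the atypical isoforms (iota and zeta, from PRKCI and PRKCZ) to neither. Phorbol esters, which stand in for diacylglycerol, are known to push K562 and HEL cells towards a megakaryocytic form. The labels name no phorbol ester for these cultures.

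Columns 2 and 3 of the K562 controls held the same count in all 28131 genes and were counted as 1 library, which left 2 control, 3 DOT1L KO and 3 ENL KO libraries in K562 and 2 of each kind in HEL, 12 in all. Total counts were 15404944 to 29236703 fragments in K562 and 12151495 to 12811688 reads in HEL. The transcript of the targeted gene was lower but still present in each group. DOT1L fell from 263 ± 9.83 CPM (counts scaled by library size; SD, n = 2) to 182 ± 5.18 (n = 3) in K562 DOT1L KO and from 92.3 ± 7.11 to 29.5 ± 0.643 (n = 2 each) in HEL DOT1L KD, and MLLT1 fell from 216 ± 3.54 (n = 2) to 154 ± 1.91 (n = 3) in ENL KO. The erythroid markers GATA1, TAL1, KLF1, HBG1, HBG2, TFRC and EPOR were present in every group. The summed level of 12 megakaryocytic markers was 23.6 to 26.2 CPM in K562 controls, 61.6 to 63.4 in DOT1L KO, 141.6 to 148.3 in ENL KO, 2896 to 2950 in HEL controls and 2235 to 2236 in DOT1L KD. In K562 controls 7 of the 12 were at 0, among them GP9 and PF4, and in HEL 2 were at 0, GP1BB and GP6. The summed level of 8 markers of other cell types was 5.25 to 5.39 CPM in K562 controls, 15.3 to 19.0 in DOT1L KO, 1.88 to 2.87 in ENL KO, 2.31 to 2.38 in HEL controls and 1.51 to 1.79 in DOT1L KD, with KRT5 and MS4A1 at 0 in every group. Both sums moved with the K562 knockouts, and their part in the changes below was not tested. In such bulk samples, fewer cells of a type and less RNA per cell cannot be told apart.

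The 8 genes lie on 7 chromosomes, and most are long. On GRCh38, as the count tables list them, PRKCA spans 17:66302808-66810744 (507.9 kb), PRKCB 16:23835979-24220611 (384.6 kb), PRKCE 2:45651904-46187990 (536.1 kb), PRKCH 14:61321443-61550980 (229.5 kb), PRKCI 3:170222432-170305982 (83.6 kb) and PRKCZ 1:2050411-2185399 (135.0 kb), all on the plus strand. PRKCQ spans 10:6394097-6580646 (186.6 kb) on the minus strand, and PRKCD, the shortest, 3:53161207-53192717 (31.5 kb) on the plus strand. Counts were summed over exons, 3161 bases in PRKCD to 8770 bases in PRKCA.

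The promoter windows of PRKCH and PRKCE are shown because these genes made the largest fall and the largest rise of the family in the K562 knockout of DOT1L. The third is that of PRKCQ, the one window of the 8 with no GC box. Each window runs from 250 bases before to 50 bases after a RefSeq start on GRCh38.p14. Capitals mark the GC box GGGCGG, read on either strand, or the TATA motif TATAAA. Where RefSeq lists several starts, the one nearest to the start in the count table was taken.
PRKCH, chr14:61321329-61321628, plus strand: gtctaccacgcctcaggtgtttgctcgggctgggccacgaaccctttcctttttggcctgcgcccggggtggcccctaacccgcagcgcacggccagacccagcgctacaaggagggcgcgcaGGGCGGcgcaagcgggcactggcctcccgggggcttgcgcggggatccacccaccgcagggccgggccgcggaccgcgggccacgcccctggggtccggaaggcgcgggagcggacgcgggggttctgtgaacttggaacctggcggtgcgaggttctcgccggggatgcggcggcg
PRKCE, chr2:45651425-45651724, plus strand: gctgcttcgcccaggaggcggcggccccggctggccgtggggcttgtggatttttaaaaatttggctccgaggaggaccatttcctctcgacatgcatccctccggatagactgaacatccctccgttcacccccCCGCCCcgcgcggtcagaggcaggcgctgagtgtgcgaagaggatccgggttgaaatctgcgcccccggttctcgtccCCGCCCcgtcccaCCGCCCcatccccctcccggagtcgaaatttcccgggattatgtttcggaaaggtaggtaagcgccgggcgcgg
PRKCQ, chr10:6580597-6580896, minus strand: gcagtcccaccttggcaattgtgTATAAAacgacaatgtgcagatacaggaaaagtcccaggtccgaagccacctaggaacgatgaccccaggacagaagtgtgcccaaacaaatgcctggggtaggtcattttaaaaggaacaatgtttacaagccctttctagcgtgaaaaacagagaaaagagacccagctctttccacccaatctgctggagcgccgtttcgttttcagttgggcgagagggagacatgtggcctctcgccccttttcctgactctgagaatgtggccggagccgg
The PRKCH window had 74.3% G and C, 37 CpG dinucleotides and 1 GC box, and the PRKCE window 64.7%, 30 CpG and 3 GC boxes. The PRKCQ window had 51.3% G and C, 11 CpG, no GC box and TATAAA once, near its 5′ end. Every other window of the family held at least 1 GC box and no TATAAA, with 19 to 52 CpG, and PRKCZ held 10 GC boxes. The GATA motif AGATAA was in none of the 8 windows on either strand. Among 35116 RefSeq windows of the same length, 45.0% held GGGCGG, 11.5% TATAAA and 10.3% AGATAA, and the medians were 58.7% G and C and 14 CpG. The count table starts PRKCH 136 bases before and PRKCE 229 bases after the RefSeq start used for the window. The RefSeq records of these genes begin further upstream, at 14:61187468 and 2:45651279. The windows therefore belong to a chosen RefSeq start and not to a start measured in these cells.

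PRKCB was the most abundant isoform in every group, and the lines differed in the isoforms below it. Levels were compared between genes as CPM per kilobase of exon. In K562 controls PRKCB stood at 96.4 ± 4.03 (SD, n = 2), followed by PRKCI at 18.9 ± 0.410, PRKCA at 10.9 ± 0.276, PRKCQ at 8.77 ± 0.229, PRKCD at 8.17 ± 0.434, PRKCH at 5.60 ± 0.0417, PRKCZ at 1.03 ± 0.0134 and PRKCE at 0.0681 ± 0.0369. No neighbours in that order overlapped between the control libraries. In HEL controls PRKCB stood at 83.7 ± 1.46 (n = 2), and the next were PRKCQ at 38.8 ± 0.530, PRKCD at 23.9 ± 0.0849 and PRKCI at 14.5 ± 0.0495. PRKCH followed at 0.763 ± 0.149. PRKCE and PRKCZ came next at 0.0864 ± 0.0404 and 0.0724 ± 0.0437 and did not differ beyond their spread, and PRKCA was last.

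**Figure D1:**
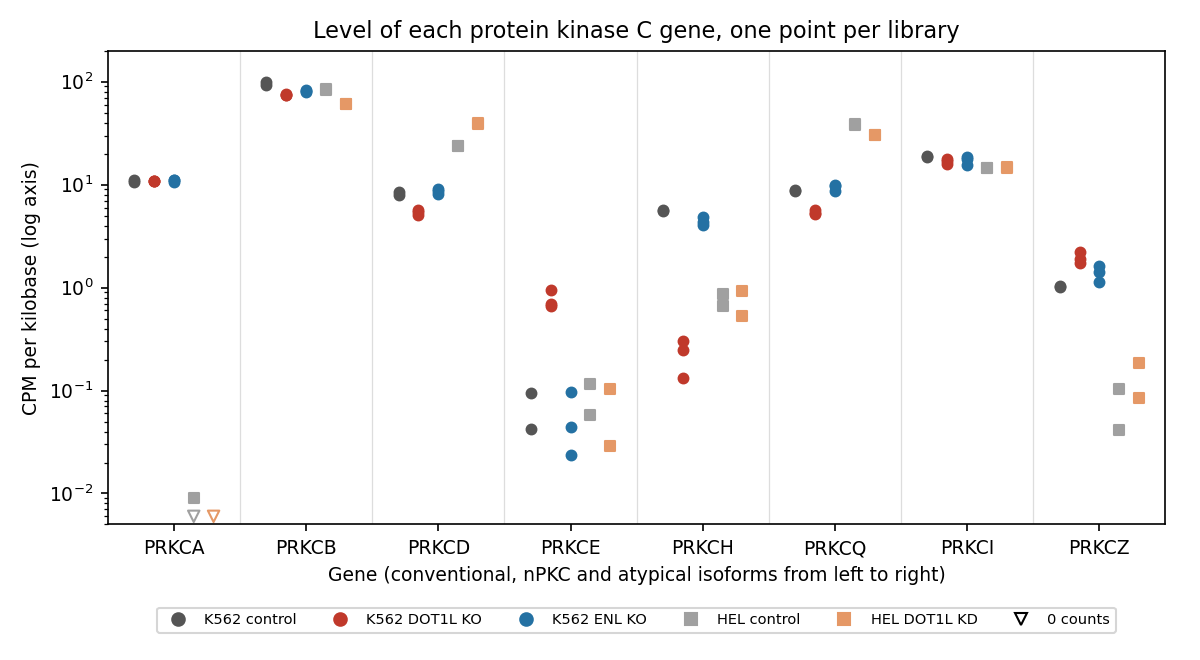
Level of the 8 protein kinase C genes in CPM per kilobase of exon (log axis), one point for each library, coloured by group, with open triangles for libraries at 0 counts. PRKCB is the highest in every group, PRKCA is at 0 or 1 count in HEL, and in K562 DOT1L KO PRKCH lies below PRKCE, the reverse of the K562 controls.

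Order changed with depletion at the places where members moved. In K562 DOT1L KO the last places were PRKCZ at 1.96 ± 0.258 CPM per kilobase, PRKCE at 0.765 ± 0.155 and PRKCH at 0.227 ± 0.0887 (n = 3), so that PRKCH, sixth in the controls, was last, while PRKCD and PRKCQ overlapped at 5.38 ± 0.338 and 5.38 ± 0.209. In ENL KO the order was that of the controls, with PRKCQ at 9.42 ± 0.674 and PRKCD at 8.64 ± 0.436 overlapping. In HEL DOT1L KD PRKCD at 39.5 ± 0.665 stood above PRKCQ at 30.4 ± 0.389 (n = 2), the reverse of the HEL controls.

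As a share of the summed level per kilobase of the 8 genes, the conventional isoforms made up 71.6% ± 0.269 (n = 2) in K562 controls, 73.7% ± 0.526 (n = 3) in DOT1L KO and 69.2% ± 0.169 (n = 3) in ENL KO. In HEL they made up 51.7% ± 0.573 in controls and 41.6% ± 0.530 in DOT1L KD (n = 2 each). The nPKC isoforms made up 15.1% ± 0.0566 in K562 controls, 10.1% ± 0.393 in DOT1L KO and 16.9% ± 0.885 in ENL KO, against 39.3% ± 0.460 and 48.3% ± 0.834 in HEL controls and DOT1L KD. The share of the nPKC isoforms thus went down in K562 and up in HEL when DOT1L was depleted, without overlap between the libraries in either line. Its members did not move together. In HEL the share of PRKCD rose from 14.8% to 27.0%, whereas that of PRKCQ fell from 24.0% to 20.8%. In K562 the share of PRKCE rose from 0.0451% to 0.656%, while those of PRKCD, PRKCQ and PRKCH fell. A share also moves when other genes in the sum move. The sum itself was 149.8 ± 5.45 CPM per kilobase in K562 controls, 116.5 ± 1.36 in DOT1L KO, 133.3 ± 2.97 in ENL KO, 161.9 ± 1.06 in HEL controls and 146.3 ± 0.283 in DOT1L KD.

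**Figure D2:**
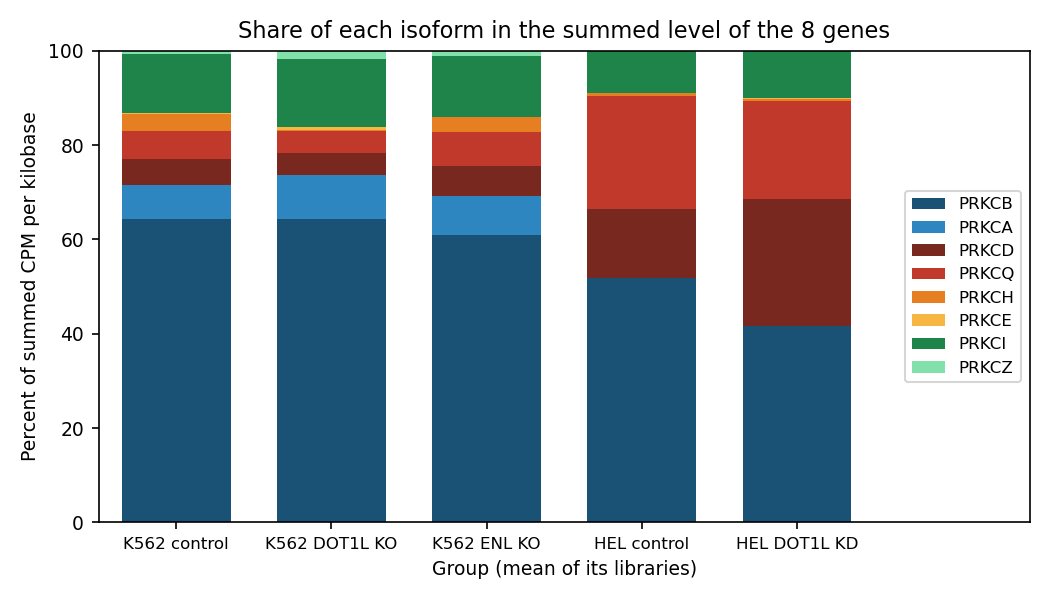
Share of each isoform, in percent of the summed CPM per kilobase of the 8 genes, as the mean of each group's libraries. PRKCB makes up 64.4% of the sum in K562 controls and 51.7% in HEL controls, and PRKCD rises from 14.8% to 27.0% in HEL with DOT1L knockdown.

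The comparison of the untreated lines asked which isoforms each expresses. PRKCA was present in K562 and not detected in HEL, where PRKCD and PRKCQ were higher and PRKCH and PRKCZ lower. Cell line goes together here with the counting of reads in HEL and fragments in K562 and with separate libraries, which cannot be told apart. PRKCA had 2016 and 2054 counts in the K562 controls, and 1 and 0 in the HEL controls and 0 in both DOT1L KD libraries. Against a floor of 3 counts per library, PRKCA was at least 399.7-fold lower in HEL. The nPKC genes PRKCD and PRKCQ were 3.08-fold and 4.65-fold higher in HEL (log2 1.62, SE 0.0745, and 2.22, SE 0.0643; edgeR adjusted p = 9.14e-15 and 2.91e-18). PRKCH was 6.99-fold lower in HEL (log2 -2.80, SE 0.204, edgeR adjusted p = 2.89e-11), and PRKCZ 13.3-fold lower (log2 -3.73, SE 0.397, edgeR adjusted p = 1.66e-08), although PRKCZ rested on 2 and 5 counts in HEL and its log2 value was -4.51 without HEL control 2. PRKCI was 1.24-fold lower in HEL. PRKCB was 1.10-fold lower (edgeR adjusted p = 0.0144), a call lost without K562 control 2 or HEL control 2 (adjusted p = 0.115 and 0.112). PRKCE, at 4 to 11 counts a library, did not pass (log2 0.41, SE 0.643, edgeR adjusted p = 0.552). Thus 7 of 8 members passed, against 85.6% of 15367 genes tested. Among them, PRKCA and PRKCZ passed the filter on low counts only through K562 libraries, so neither could have been called higher in HEL. All adjusted p-values come from quasi-likelihood tests in edgeR, adjusted over all genes tested by the Benjamini-Hochberg method, with 0.05 as threshold. Nothing in the labels says that libraries of 1 group came from separate cultures, so the p-values measure only the spread between these libraries, which may be technical. The common variation between libraries beyond counting error was 1.83% in the HEL fit, 6.34% in the K562 fit and 4.88% in the fit of both lines. P-values and shares of genes called are therefore not comparable between the lines.

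Loss of DOT1L in K562 was followed by changes in 6 of the 8 genes. Among the nPKC genes PRKCH fell 25.5-fold, PRKCQ 1.63-fold and PRKCD 1.52-fold, while PRKCE rose 11.2-fold from a very low level. PRKCB, of the conventional class, fell 1.29-fold, and PRKCZ, of the atypical class, rose 1.89-fold. The 6 of 8 that passed compare with 51.1% of 14301 genes tested in this comparison, the 2 that rose with 26.9% and the 4 that fell with 24.2%. At an additional minimum of 2-fold, 2 members passed, PRKCH and PRKCE, against 15.8% of genes tested. The median log2 fold change of the 8 members was -0.26, against 0.01 over all genes tested. Members were read against these shares because so many genes moved.

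PRKCH, whose product is the eta isoform, had 463 and 460 counts in the K562 controls (21.5 and 21.8 CPM) and 26, 15 and 20 counts in DOT1L KO (1.18, 0.507 and 0.946 CPM). The groups were far apart, and each DOT1L KO library was still above the floor of 3 counts. The log2 fold change was -4.67 (SE 0.182, edgeR adjusted p = 2.51e-10), the 17th lowest of 14301 genes. It ranged from -4.95 to -4.33 over 11 alternative settings.

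PRKCE, whose product is the epsilon isoform, had 5 and 11 counts in the controls (0.232 and 0.520 CPM) and 80, 154 and 81 in DOT1L KO (3.63, 5.20 and 3.83 CPM). The lowest DOT1L KO library was above both controls, and the second DOT1L KO library was the highest of the 3. The log2 fold change was 3.49 (SE 0.370, edgeR adjusted p = 3.69e-06). Its size rests on few control counts: it was 4.16 without control 2 and 3.02 without control 1, both past the threshold.

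PRKCQ, the theta isoform best known from T cells, stood at 32.2 and 33.4 CPM in the controls and 21.0, 19.9 and 19.5 in DOT1L KO (log2 fold change -0.70, SE 0.0832, edgeR adjusted p = 1.02e-05). PRKCD, the delta isoform, stood at 24.9 and 26.8 CPM in the controls and 17.2, 15.9 and 18.0 in DOT1L KO (log2 -0.61, SE 0.0880, edgeR adjusted p = 6.79e-05). Neither gene's groups overlapped. PRKCQ-AS1, an antisense gene that shares 146 exonic bases with PRKCQ, fell as well, from 19.9 ± 0.933 CPM (n = 2) to 15.1 ± 0.825 (n = 3). Use of strand in counting is not stated, and without it reads in the shared bases cannot be told apart, so PRKCQ is uncertain to that extent.

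PRKCB stood at 750 and 796 CPM in the controls and 599, 609 and 595 in DOT1L KO (log2 -0.36, SE 0.0493, edgeR adjusted p = 3.70e-05). All 3 knockout libraries were below both controls. PRKCA stood at 93.7 and 97.1 CPM in the controls and 94.6, 96.2 and 94.7 in DOT1L KO, and the groups overlapped (log2 -0.003, SE 0.0545, edgeR adjusted p = 0.967). Of the 2 conventional genes PRKCB passed the threshold and PRKCA did not, and the difference between them was not tested.

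PRKCZ stood at 4.00 and 3.92 CPM in the controls and 6.67, 7.26 and 8.61 in DOT1L KO, without overlap (log2 0.92, SE 0.166, edgeR adjusted p = 4.20e-04). It shares 594 of its 3840 exonic bases with FAAP20 on the opposite strand, which stood at 76.3 ± 7.21 CPM (n = 2) and 79.3 ± 1.98 (n = 3) in the same groups and did not pass (log2 0.06, edgeR adjusted p = 0.519). PRKCZ-AS1, which shares 83 bases, stood at 1.99 ± 0.0573 and 1.40 ± 0.367 CPM and did not pass either. PRKCI, whose iota isoform binds polarity proteins, stood at 90.9 and 93.7 CPM in the controls and 77.9, 86.3 and 83.6 in DOT1L KO. The groups did not overlap, but PRKCI did not pass (log2 -0.16, SE 0.0777, edgeR adjusted p = 0.105). It passed with no filter on low counts and with the 2 groups alone (edgeR adjusted p = 0.0493 and 0.0352).

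**Figure D3:**
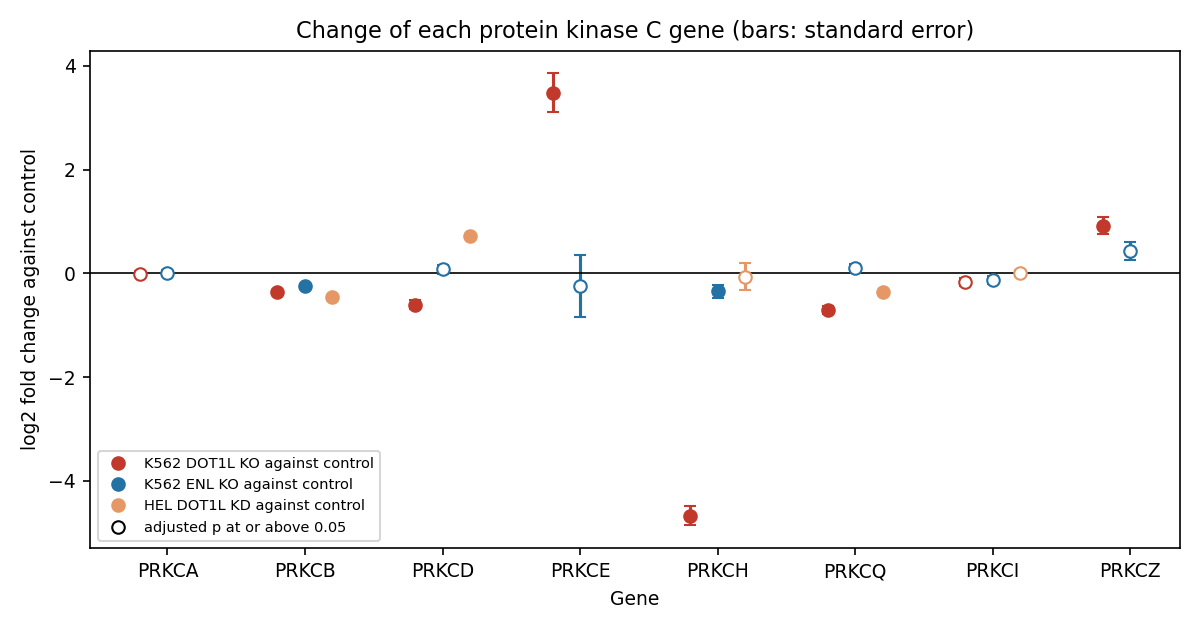
Change of the 8 genes against control as log2 fold change with its standard error, for K562 DOT1L KO, K562 ENL KO and HEL DOT1L KD. Filled points passed the threshold, open points did not, and PRKCA, PRKCE and PRKCZ have no HEL value because they failed the filter on low counts; PRKCH at -4.67 and PRKCE at 3.49 stand apart.

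Loss of ENL in K562 moved fewer members. PRKCB fell 1.19-fold and PRKCH 1.27-fold, so 2 of 8 passed, against 41.0% of 14301 genes tested. No member rose, against 18.8% of genes, and both calls were falls, against 22.2%. No member passed at 2-fold or more, against 11.0%. The median log2 fold change of the members was -0.06, against 0.003 over all genes tested. The ENL KO and DOT1L KO comparisons share their 2 control libraries. The labels give a sequencing lane for the K562 controls and DOT1L KO libraries and none for ENL KO, so batch and loss of ENL cannot be told apart.

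PRKCB stood at 637, 649 and 667 CPM in ENL KO, below both controls (log2 -0.25, SE 0.0495, edgeR adjusted p = 0.00126). PRKCH stood at 16.6, 18.6 and 15.8 CPM, also below both controls (log2 -0.34, SE 0.127, edgeR adjusted p = 0.0451). The PRKCH call was lost without control 1, control 2, ENL KO 1 or ENL KO 3, with adjusted p of 0.151, 0.164, 0.0768 and 0.105. PRKCZ stood at 6.18, 5.40 and 4.36 CPM, above both controls, and did not pass (log2 0.44, SE 0.176, edgeR adjusted p = 0.0621). It passed with no filter on low counts (edgeR adjusted p = 0.0434) and without ENL KO 3 (log2 0.55, edgeR adjusted p = 0.0225).

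The remaining members overlapped the controls in ENL KO. PRKCD stood at 28.7, 25.9 and 27.3 CPM (log2 0.08, SE 0.0873) and PRKCQ at 37.2, 32.4 and 36.2 (log2 0.10, SE 0.0825). PRKCA stood at 93.6, 98.3 and 96.3 CPM (log2 0.01, SE 0.0549), PRKCI at 75.1, 86.1 and 91.3 (log2 -0.13, SE 0.0783), and PRKCE had 11, 5 and 2 counts (log2 -0.24, SE 0.602). None of these 5 passed in this fit.

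The knockouts were compared with each other directly in the same K562 fit. The controls entered only through the shared filter, scaling and estimate of the spread. Since a lane is labelled for DOT1L KO and not for ENL KO, batch cannot be told apart from any difference between the knockouts, here or below. PRKCH, PRKCQ, PRKCD and PRKCB were lower and PRKCE and PRKCZ higher in DOT1L KO than in ENL KO, 6 of 8, against 60.2% of 14301 genes tested. PRKCH was 20.1-fold lower (log2 -4.33, SE 0.178, edgeR adjusted p = 1.42e-10), and PRKCE 13.2-fold higher (log2 3.73, SE 0.339, edgeR adjusted p = 5.00e-07), or 4.41 on the log2 scale without ENL KO 1. PRKCQ was 1.75-fold and PRKCD 1.61-fold lower (edgeR adjusted p = 6.82e-07 and 5.84e-06), and PRKCZ 1.40-fold higher (edgeR adjusted p = 0.00997). PRKCB was 1.08-fold lower (log2 -0.12, SE 0.0445, edgeR adjusted p = 0.0378), a call lost in 8 of 12 alternatives. These were leaving out any DOT1L KO library, ENL KO 2 or ENL KO 3, with adjusted p from 0.0655 to 0.101, DESeq2 (0.0504), upper-quartile scaling (0.171) and library totals alone (0.210). PRKCA and PRKCI did not pass (log2 -0.01 and -0.02).

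**Figure D4:**
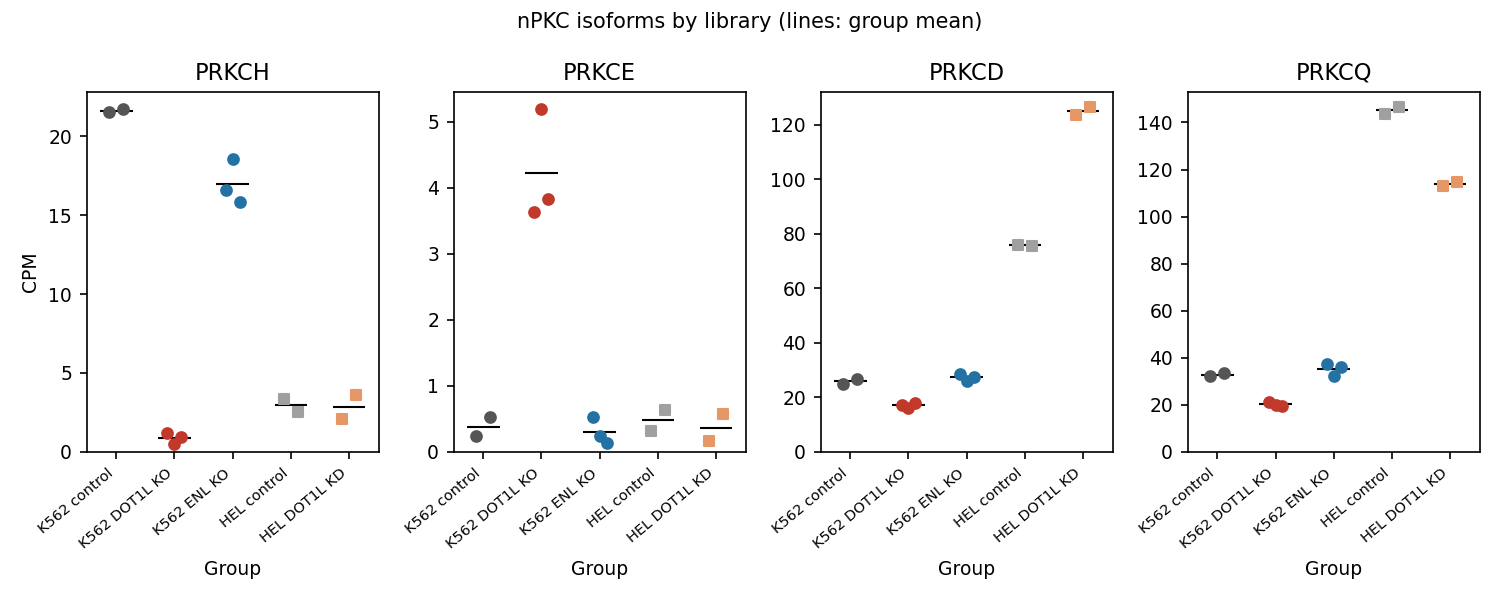
CPM of the 4 nPKC isoforms in each library (points) with the group mean (line), on a linear axis from 0 for each gene. PRKCH is at 0.507 to 1.18 CPM in K562 DOT1L KO against 21.5 and 21.8 in the controls, PRKCE is raised in that group, and PRKCD is lower in K562 DOT1L KO and higher in HEL DOT1L KD than in the respective controls.

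Knockdown of DOT1L in HEL moved PRKCD up and PRKCB and PRKCQ down. Of the 8 members, 5 passed the filter on low counts, and PRKCA (0 or 1 counts), PRKCE (2 to 8) and PRKCZ (2 to 9) did not. Of the 5 tested, 3 passed, against 55.0% of 12635 genes tested. The 1 that rose compares with 27.0% of genes and the 2 that fell with 28.0%, and no member passed at 2-fold or more, against 5.84%. The division of calls over all genes depends on the scaling here, with 49.1% of called genes higher as fitted and 61.4% with upper-quartile scaling. The directions of the 3 called members held under each scaling tried.

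PRKCD stood at 75.9 and 75.5 CPM in the HEL controls and 123.4 and 126.4 in DOT1L KD (log2 0.72, SE 0.0468, edgeR adjusted p = 4.71e-19). PRKCB stood at 679 and 663 CPM in the controls and 491 and 484 in DOT1L KD (log2 -0.46, SE 0.0292, edgeR adjusted p = 1.87e-19). PRKCQ stood at 143.8 and 146.6 CPM and then 112.8 and 114.8 (log2 -0.35, SE 0.0425, edgeR adjusted p = 5.56e-10), and PRKCQ-AS1 fell with it, from 33.0 ± 3.28 to 23.0 ± 1.68 CPM (n = 2 each). None of the 3 overlapped between groups. PRKCH stood at 3.35 and 2.54 CPM in the controls and 2.07 and 3.58 in DOT1L KD, and PRKCI at 70.7 and 71.1 and then 72.6 and 70.2. Both overlapped and did not pass (log2 -0.07, SE 0.263, and 0.01, SE 0.0527).

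Whether the response to DOT1L depletion differed between the lines was tested as an interaction, in which knockdown against knockout, counting and library preparation go together with the line. Of the 8 members 4 passed, against 38.9% of 15367 genes tested: PRKCD, PRKCH and PRKCQ, and PRKCE, which was too low in HEL to be tested there alone. The change of PRKCD was 1.35 higher in HEL on the log2 scale (SE 0.100, edgeR adjusted p = 7.44e-10), since PRKCD fell in K562 and rose in HEL. The change of PRKCH was 4.62 higher in HEL (SE 0.390, edgeR adjusted p = 4.86e-09) and that of PRKCQ 0.37 higher (SE 0.0880, edgeR adjusted p = 0.00191). PRKCH started low in HEL, 6.99-fold below the K562 controls, with 26 to 44 counts a library. Its HEL change ran from -0.51 to 0.28 over the alternative settings, and its interaction from 4.18 to 4.97. For PRKCE the difference was -3.86 (SE 0.865, edgeR adjusted p = 0.00115), but PRKCE had 2 to 8 counts in the HEL libraries. Without HEL control 2 it did not pass (-3.30, adjusted p = 0.0508), and it was -4.53 without K562 control 2, -3.22 without HEL DOT1L KD 1 and -5.02 without HEL DOT1L KD 2. PRKCB fell in both lines, and its difference of -0.08 (SE 0.0655, edgeR adjusted p = 0.375) did not pass, nor did that of PRKCI (0.19, SE 0.0872, edgeR adjusted p = 0.0961). PRKCZ and PRKCA cannot be read here because of their low counts in HEL.

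Genes most like a member were sought among 8981 genes with at least 5 CPM on average in both lines, as the distance over the 3 log2 fold changes of DOT1L KO, ENL KO and HEL DOT1L KD. The first and second of these share controls. Only the 4 members that passed in at least 2 comparisons entered. PRKCB was nearest to CCNB1IP1, RLIM and TNPO1, at distances of 0.025, 0.036 and 0.056. PRKCQ was nearest to ZNRF2, UHRF1BP1 and ZXDB, at 0.044, 0.053 and 0.069, and PRKCD to IGF2R, ROR2 and PGK1, at 0.093, 0.11 and 0.12. The standard errors of the fold changes were 0.0292 to 0.0495 for PRKCB, 0.0425 to 0.0832 for PRKCQ and 0.0468 to 0.0880 for PRKCD. With distances of about that size, which genes ranked nearest to these members is within error. For PRKCH the nearest were ZNF680 at 0.92, EREG at 1.55 and SLC4A7 at 1.67. These distances say little, since the DOT1L KO change of PRKCH was the 17th lowest of 14301, where few genes could lie near. PRKCH itself averaged 2.88 CPM in HEL, under the 5 CPM asked of the others. It entered through an ENL KO call that was lost when single libraries were left out.

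The genes around protein kinase C were followed in 7 lists of 70 genes in all. The K562 fit tested 59 of them and the HEL fit 56. In K562 DOT1L KO 17 rose and 21 fell, against 26.9% and 24.2% of all genes tested. In ENL KO 9 rose and 16 fell, against 18.8% and 22.2%, and in HEL DOT1L KD 25 rose and 13 fell, against 27.0% and 28.0%. Median log2 fold changes were -0.02, -0.05 and 0.12, against 0.01, 0.003 and 0.01 over all genes tested. The genes named from each list were called, changed by at least 0.5 on the log2 scale and did not overlap between groups, except PRKD1, PRKD2 and HSP90AA1, and PLCB1 in DOT1L KO, which were named after their values were seen.

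The related kinases come first. PRKD1, of the protein kinase D group, had 0 to 6 counts and was not tested. Of 5 tested, 3 fell in DOT1L KO (24.2% of all genes fell), 3 fell in ENL KO (22.2% fell), and 2 rose and 1 fell in HEL (55.0% were called). PKN3, a kinase related to protein kinase C, fell from 117.0 ± 0.636 to 74.1 ± 1.34 CPM in DOT1L KO (log2 -0.66, edgeR adjusted p = 4.78e-07). PRKD2, of the same group as PRKD1, went down in K562 DOT1L KO (log2 -0.34, edgeR adjusted p = 6.22e-04) and up in HEL (log2 0.37, edgeR adjusted p = 8.87e-07).

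Phospholipases C make the diacylglycerol that activates the kinases. Of 9 tested in K562, 3 rose and 3 fell in DOT1L KO (51.1% of all genes were called) and 2 rose and 2 fell in ENL KO (41.0%). Of 8 tested in HEL 6 rose and 1 fell, where 27.0% of all genes rose and 28.0% fell. PLCB2 rose from 9.29 ± 0.974 to 41.4 ± 1.94 CPM in DOT1L KO (log2 2.15, edgeR adjusted p = 9.65e-10). PLCH1 rose in all 3 comparisons, by 1.35, 0.73 and 1.04 on the log2 scale. PLCD1 fell from 296 ± 19.1 to 129.7 ± 4.81 CPM in K562 DOT1L KO (log2 -1.19, edgeR adjusted p = 8.36e-09) and rose from 5.85 ± 0.255 to 12.3 ± 0.205 in HEL (log2 1.07, edgeR adjusted p = 1.51e-08), with an interaction of 2.28 (SE 0.142, edgeR adjusted p = 4.16e-11). PLCB1 rose from 1.45 ± 0.446 CPM to 3.21 ± 0.180 in DOT1L KO (log2 1.15, edgeR adjusted p = 0.00206) and 3.25 ± 0.808 in ENL KO (log2 1.14, edgeR adjusted p = 0.00338), and PLCG2 fell in ENL KO (log2 -0.66). The ENL KO calls of PLCB1 and PLCG2 were lost without control 2 and control 1 in turn (adjusted p = 0.0523 and 0.0553), and in HEL PLCB4 rose (log2 1.00).

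Diacylglycerol kinases remove diacylglycerol. Of 8 tested in K562, 2 rose and 3 fell in DOT1L KO (51.1% of all genes were called) and 4 fell in ENL KO (22.2% fell), and of 7 tested in HEL 2 fell (28.0% fell). DGKG had 7 and 6 counts in the K562 controls, 49, 81 and 63 in DOT1L KO and 2, 1 and 0 in ENL KO. DGKG passed the filter on low counts in K562 only through its DOT1L KO libraries, so a fall in that knockout could not have been tested. It rose in DOT1L KO (log2 3.10, SE 0.342, edgeR adjusted p = 5.35e-06), whereas the ENL KO value, though called (adjusted p = 0.0192), rests on a group under the floor of 3 counts and is lost without control 1, control 2 or ENL KO 2 (adjusted p = 0.0883, 0.0548 and 0.0546). DGKE fell in DOT1L KO (log2 -0.74), DGKH fell in ENL KO (log2 -0.55) and DGKD fell in HEL (log2 -0.86). The DGKH call was lost without control 1, control 2, ENL KO 1 or ENL KO 2, with adjusted p from 0.0557 to 0.119.

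Other proteins bind diacylglycerol through the same kind of domain, among them the RASGRP exchange factors that switch on Ras and Rap. Of 9 tested in K562, 5 rose and 3 fell in DOT1L KO (51.1% of all genes were called) and 2 rose and 3 fell in ENL KO (41.0%), and of 10 tested in HEL 4 rose and 3 fell (55.0%). RASGRP3 had 3 and 6 counts in the K562 controls (0.139 and 0.284 CPM) and 177, 281 and 158 in DOT1L KO (8.04, 9.49 and 7.48 CPM). The log2 fold change was 5.27 (SE 0.286, edgeR adjusted p = 4.79e-09), and ENL KO stayed at 3 to 5 counts. RASGRP3 passed the filter on low counts in K562 only through its DOT1L KO libraries, so a fall in that knockout could not have been tested. In HEL RASGRP3 went the other way, from 79.7 and 77.4 CPM in the controls to 31.4 and 28.6 in DOT1L KD (log2 -1.39, SE 0.0637, edgeR adjusted p = 3.31e-25), with an interaction of -6.64 (SE 0.267, edgeR adjusted p = 3.60e-14). RASGRP4 split the K562 knockouts, at 8.44 ± 0.699 CPM in controls, 28.2 ± 1.73 in DOT1L KO (log2 1.74, edgeR adjusted p = 4.98e-08) and 1.41 ± 0.381 in ENL KO (log2 -2.56, edgeR adjusted p = 7.21e-08). RASGRP1 rose in DOT1L KO (log2 1.15), a call lost without control 1 (adjusted p = 0.0571). CDC42BPB, a kinase with such a domain, rose in ENL KO (log2 0.62), and in HEL CHN2, a Rac-inactivating protein, fell (log2 -0.94) and UNC13B, a vesicle-priming protein, rose (log2 0.63).

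**Figure D5:**
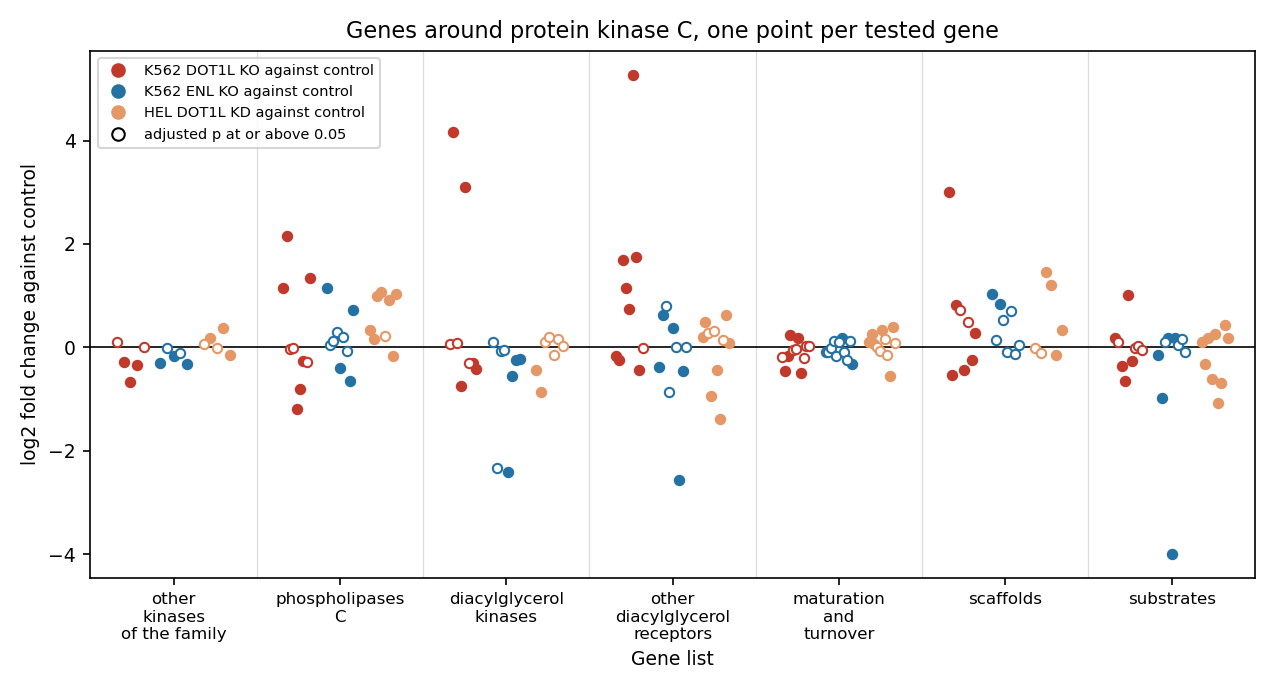
log2 fold change against control of the tested genes in the 7 lists around protein kinase C, one point per gene and comparison, filled where the threshold was passed. RASGRP3 at 5.27 is the highest point among the diacylglycerol receptors, and MARCKS at -3.99 in ENL KO the lowest among the substrates.

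Further proteins fold, prime and turn over the kinases. All 11 were tested in both lines, with 2 up and 3 down in DOT1L KO (51.1% of all genes were called), 1 up and 1 down in ENL KO (41.0%) and 5 up and 1 down in HEL (55.0%), none by 2-fold. HSP90AA1, the chaperone, fell in K562 DOT1L KO (log2 -0.45) and rose in HEL (log2 0.27). PHLPP2, a phosphatase of the kinases' C-terminal tail, fell in HEL (log2 -0.56, edgeR adjusted p = 9.81e-04).

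Scaffolds place the kinases in the cell. Of 8 tested in K562, 3 rose and 3 fell in DOT1L KO (51.1% of all genes were called) and 2 rose and none fell in ENL KO (41.0%), and of 6 tested in HEL 3 rose and 1 fell (55.0%). AKAP12, which anchors protein kinases A and C, rose from 6.05 ± 0.405 CPM to 48.6 ± 0.497 in DOT1L KO (log2 3.00, SE 0.106, edgeR adjusted p = 1.14e-10) and 12.4 ± 1.30 in ENL KO (log2 1.04, SE 0.113, edgeR adjusted p = 7.28e-06), and stood at 9.99 ± 0.913 and 9.96 ± 0.979 in HEL controls and DOT1L KD. The polarity partners of the atypical isoforms were mixed. PARD3 fell in DOT1L KO (log2 -0.53), PARD6A and PARD6B rose in HEL (log2 1.46 and 1.21) from 1.39 ± 0.163 to 3.86 ± 0.0615 and from 1.19 ± 0.00495 to 2.77 ± 0.0127 CPM, and PARD3B rose in both knockouts (log2 0.82 and 0.84). Of the PARD3B calls, that in DOT1L KO was lost without control 1 or DOT1L KO 3 (adjusted p = 0.259 and 0.0711), and that in ENL KO without control 1 or ENL KO 2, with DESeq2 and with the 2 groups alone (adjusted p = 0.286, 0.170, 0.0508 and 0.0561).

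Among substrates of the kinases, MARCKS differed in direction between the K562 knockouts. Of 9 tested, 2 rose and 3 fell in DOT1L KO (51.1% of all genes were called) and 2 rose and 3 fell in ENL KO (41.0%), and of 9 tested in HEL 5 rose and 4 fell (55.0%). MARCKS, a membrane-bound actin regulator and classical substrate, stood at 11.1 and 11.5 CPM in the controls, 19.8, 24.2 and 24.1 in DOT1L KO and 0.724, 0.681 and 0.716 in ENL KO. It was thus higher in DOT1L KO (log2 1.01, SE 0.109, edgeR adjusted p = 4.22e-06) and lower in ENL KO (log2 -3.99, SE 0.176, edgeR adjusted p = 1.19e-09), and the knockouts differed by 5.00 (SE 0.152, edgeR adjusted p = 9.36e-12). It had 0 counts in all 4 HEL libraries. PLEK, the main substrate in platelets, stood at 1948 ± 33.2 CPM in HEL controls and 925.5 ± 13.6 in DOT1L KD (log2 -1.07, SE 0.0273, edgeR adjusted p = 3.33e-36) and had 1 to 10 counts in K562. CAVIN2 fell in K562 DOT1L KO (log2 -0.65) and in HEL (log2 -0.61), PPP1R14A fell in HEL (log2 -0.68) and ADD2, a membrane skeleton protein, fell in ENL KO (log2 -0.98). The megakaryocytic marker ITGB3 moved beside PLEK in HEL, from 923 ± 4.31 to 446 ± 15.8 CPM, and in K562 rose to 9.04 ± 0.557 in DOT1L KO and 20.1 ± 1.96 in ENL KO from 3.75 ± 0.443 in controls; its part in the values above was not tested.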

How the data were processed

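Polyadenylated RNA of K562 and HEL cells was made into strand-marking libraries, per the labels' protocols. The authors deposited whole-number counts per gene that are not normalized, fragments for K562 and reads for HEL, per the file headers. The submitters' processing notes name fastp 0.13.1, HISAT2 2.1.0, Bowtie2 2.3.4.1, featureCounts 1.6.1 and deepTools, and builds hg38 and hg19, without roles; use of strand is not given in the sources used here. Samples were grouped by their labels. Counts were tested with edgeR 4.0.16 in R 4.3.3 (filterByExpr with a minimum count of 10 and total of 15, TMM scaling, quasi-likelihood test, Benjamini-Hochberg adjustment over all genes tested), 8 K562 libraries in 1 fit, 4 HEL libraries in another and 9 libraries without ENL KO for the comparisons between lines; the procedure was tested on simulated data. CPM are on the TMM scale of each line's fit, and SE is the fold change divided by the square root of F. With 12151495 to 29236703 counts per library, a floor of 3 counts is 0.103 to 0.247 CPM, which covers counting error only. Genes of the lists were named, up to 3 per list and comparison, if called, changed by at least 0.5 on the log2 scale, at 1 CPM or more on average and without overlap between groups; outside that rule, PLCB1 in DOT1L KO and 4 genes were named after their values were seen: PRKD1, PRKD2, HSP90AA1 and ITGB3. Alternatives were DESeq2 1.42.0, other scalings, no filter, a 2-fold minimum, a replicate block, the 2 groups alone and leaving out each library. The members and the lists were chosen with earlier results of these data known.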

Additional observations from a re-analysis of the deposited data

Results flagged for a closer look

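The change with DOT1L depletion differed between HEL and K562 in PRKCD, PRKCH, PRKCQ and, on few counts, PRKCE by the interaction test in edgeR, which is what brought them here. As HEL change minus K562 change on the log2 scale, PRKCD differed by 1.35 (0.72 in HEL against -0.61 in K562) and PRKCH by 4.62 (-0.07 against -4.67). PRKCH had 26 to 44 counts in each HEL library, and its HEL controls were already 6.99-fold below the K562 controls. PRKCQ differed by 0.37, since it fell by 0.35 in HEL and by 0.70 in K562. PRKCE differed by -3.86, but it had 2 to 8 counts in each HEL library, was not tested in HEL alone, and did not pass without HEL control 2 (-3.30, edgeR adjusted p = 0.0508). Knockdown against knockout, counting of reads against fragments and library preparation go together with the line and cannot be told apart.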

How the results depend on the processing

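Members called numbered 6 in DOT1L KO, 2 in ENL KO, 6 between the knockouts and 3 in HEL. With a 2-fold minimum these were 2, 0, 2 and 0. Leaving out 1 library gave 1 to 2 in ENL KO. The labels do not say what a replicate number shares. Deviations of same-numbered K562 libraries correlated at 0.0684 to 0.355, all above 0 and highest for number 1, but not every pair was above 0.1, and DOT1L KO 2 correlated better with ENL KO 3 (0.138) than with ENL KO 2 (0.0753). In HEL the value was -0.0026. The numbers were therefore not taken as pairs. With the replicate block the members called were 7, 3, 6 and 3, PRKCI being added in DOT1L KO (-0.19, adjusted p = 0.00466) and ENL KO (-0.17, adjusted p = 0.0142). Over all genes the block called 8340 against 7305 in DOT1L KO, 7021 against 5863 in ENL KO, 9605 against 8606 between the knockouts and 6903 against 6951 in HEL. Over all genes the HEL comparison called 6951, and 4561 with DESeq2.

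Values that changed sign were all uncalled. With DESeq2, PRKCA in DOT1L KO was 0.0034 and the PRKCZ interaction 0.0047. With upper-quartile scaling PRKCA was 0.013 in DOT1L KO, -0.015 in ENL KO and 0.028 between the knockouts, IGF2R -0.012 in ENL KO, PRKCI 0.017 between the knockouts and PRKCH 0.0079 in HEL. With library totals alone PRKCA was 0.042 in DOT1L KO and 0.039 between the knockouts, and PRKCI 0.027 between them. Over the fits that left out 1 library, values ran from -0.032 to 0.020 for PRKCA in DOT1L KO. In ENL KO they ran from -0.014 to 0.038 for PRKCA, -0.93 to 0.44 for PRKCE, -0.027 to 0.041 for IGF2R and -0.022 to 0.25 for ZNRF2. They ran from -0.10 to 0.036 for PRKCI between the knockouts, -0.51 to 0.28 for PRKCH and -0.014 to 0.033 for PRKCI in HEL, -0.16 to 1.08 for PRKCE between the control lines and -0.68 to 0.77 for the PRKCZ interaction. The cause was not tested. Groups of 2 or 3 libraries and single-digit counts of PRKCE and, in HEL, PRKCZ limit what can be read from them.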
